A study of Rattus norvegicus with 34 samples.

Results

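Genes of cytotoxic lymphocytes were followed in rat liver: Gzmk, Gzmb, Prf1, Nkg7, Klrd1, Ccl5, Cd2, Cd48 and Cd53. The members were the 9 of 12461 measured genes that are annotated with these symbols, each taken at the probe set with the highest mean signal in the strain. All 9 had values in F344 rats and 7 in Brown Norway rats, where Prf1 and Cd2 were not analysed here. The livers came from 34 male rats of 2 inbred strains, with 1 array for each animal, in a study of how enzymes that metabolise foreign compounds change with age.

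The F344 groups were aged 6, 11, 18 or 24 months, each of 4 untreated animals, which had stayed with their supplier until 1 week before necropsy. The Brown Norway rats were housed singly and were 4, 12 or 24 months old. At each of these ages 3 rats were given the industrial solvent toluene in corn oil (1 g/kg, by gavage) and necropsied after 4 h, and 3 were controls labelled as having no treatment. Every group was thus a set of whole livers of males of 1 strain at 1 age. The hepatocyte product Alb had group means between 7545 and 8421 in all 10 groups, and is the abundant product expected of liver.

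Cytotoxic lymphocytes, which are natural killer cells and CD8 T cells, kill virus-infected and transformed cells by releasing granules onto them. Perforin opens the target membrane, granzymes enter and trigger cell death, and the chemokine Ccl5 is stored and released by the same cells. The liver holds a resident population of natural killer and T cells in its sinusoids, among Kupffer cells, the liver's macrophages. Of the members, the granule genes are the most restricted to these cells, while Cd48 and Cd53 are found on most leukocytes.

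The granule genes are known to be controlled in lymphocytes by RUNX and ETS family transcription factors, so the 250 bases upstream of the RefSeq transcript start (GRCr8) are shown for the 4 granule genes, 5′ to 3′ on the gene's strand. Capitals mark the letters TGTGGT, a RUNX core, and AGGAAG, an ETS core, on either strand, where they read ACCACA and CTTCCT. The windows were chr2:46582016-46582265 on the minus strand for Gzmk, chr15:34462470-34462719 on the minus strand for Gzmb, chr20:29788790-29789039 on the plus strand for Prf1 and chr1:102981247-102981496 on the plus strand for Nkg7.
Gzmk: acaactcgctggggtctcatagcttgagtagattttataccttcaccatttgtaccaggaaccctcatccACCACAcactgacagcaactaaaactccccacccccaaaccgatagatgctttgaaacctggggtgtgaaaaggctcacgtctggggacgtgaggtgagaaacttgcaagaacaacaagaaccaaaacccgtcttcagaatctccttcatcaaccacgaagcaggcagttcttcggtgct
Gzmb: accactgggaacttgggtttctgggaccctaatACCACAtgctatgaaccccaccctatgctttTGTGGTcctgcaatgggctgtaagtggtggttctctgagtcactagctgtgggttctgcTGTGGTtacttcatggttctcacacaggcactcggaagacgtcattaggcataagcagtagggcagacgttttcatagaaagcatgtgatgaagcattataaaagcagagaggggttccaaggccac
Prf1: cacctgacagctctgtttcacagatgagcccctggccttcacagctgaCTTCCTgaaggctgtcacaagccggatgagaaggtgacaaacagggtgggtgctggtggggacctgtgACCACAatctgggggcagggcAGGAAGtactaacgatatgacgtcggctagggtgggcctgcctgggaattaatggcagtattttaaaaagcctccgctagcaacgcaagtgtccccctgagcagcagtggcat
Nkg7: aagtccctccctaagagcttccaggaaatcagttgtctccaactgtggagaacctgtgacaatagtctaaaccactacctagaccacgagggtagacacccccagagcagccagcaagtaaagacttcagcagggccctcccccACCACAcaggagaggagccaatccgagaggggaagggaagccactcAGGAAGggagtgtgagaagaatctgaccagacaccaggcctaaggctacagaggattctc
RefSeq windows were matched for 7 of the 9 members, and Klrd1 and Ccl5 had no entry. The RUNX letters stood in 5 of these 7 windows (Cd2, Gzmb, Gzmk, Nkg7 and Prf1), against 14.5% of 33469 windows of the same length over all genes. The Gzmb window held 3 matches and the windows of Gzmk, Prf1 and Nkg7 1 each. The ETS letters stood in 4 of the 7 (Cd48, Cd53, Nkg7 and Prf1), against 29.5% of all windows, so that Prf1 and Nkg7 carried both. The TATA box letters TATAAA, which stood in the Gzmb and Gzmk windows, occurred in 12.9% of all windows. On the gene's own strand TATAAA began 30 bases before the start of Gzmb. The AP-1 letters TGANTCA were in the Gzmb window alone, against 6.34% of all windows, and the T-box letters AGGTGT were in none of the 7, against 11.6%. No match of the capital letters overlapped another motif searched. These are letter matches, and binding was not measured.

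Signals are linear probe set intensities. Values under 32 were read as at or below 32, a floor, because low signals scatter widely on a log scale, and they have no order among themselves. The test took genes that exceeded the floor on 4 or more F344 arrays, or 3 or more Brown Norway arrays. That left 7 members in F344, all but Nkg7 (above the floor on 3 of 16 arrays) and Cd2 (2 of 16). In Brown Norway 3 were left, namely Ccl5, Cd48 and Cd53. A change passed at an adjusted p under 0.05 in limma over all genes of the strain. A fold against a group with arrays at the floor is a lower bound.

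In F344 livers 3 of the 7 tested members rose from 6 to 24 months: the granzyme Gzmk, the killer cell receptor Klrd1 and the leukocyte tetraspanin Cd53. The share of all genes that passed as higher in this comparison was 4.43%, and 7.4% passed in either direction. Ccl5, Cd48 and Cd53 were the members above the floor in every F344 liver. For each of these 3 every 24-month liver lay above every 6-month liver, which held for 8.82% of all genes. The other members tested had livers at the floor and could pass the filter through their oldest livers: of the 5 livers in which Gzmb exceeded 32, 4 were of 24 months.

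**Figure D1:**
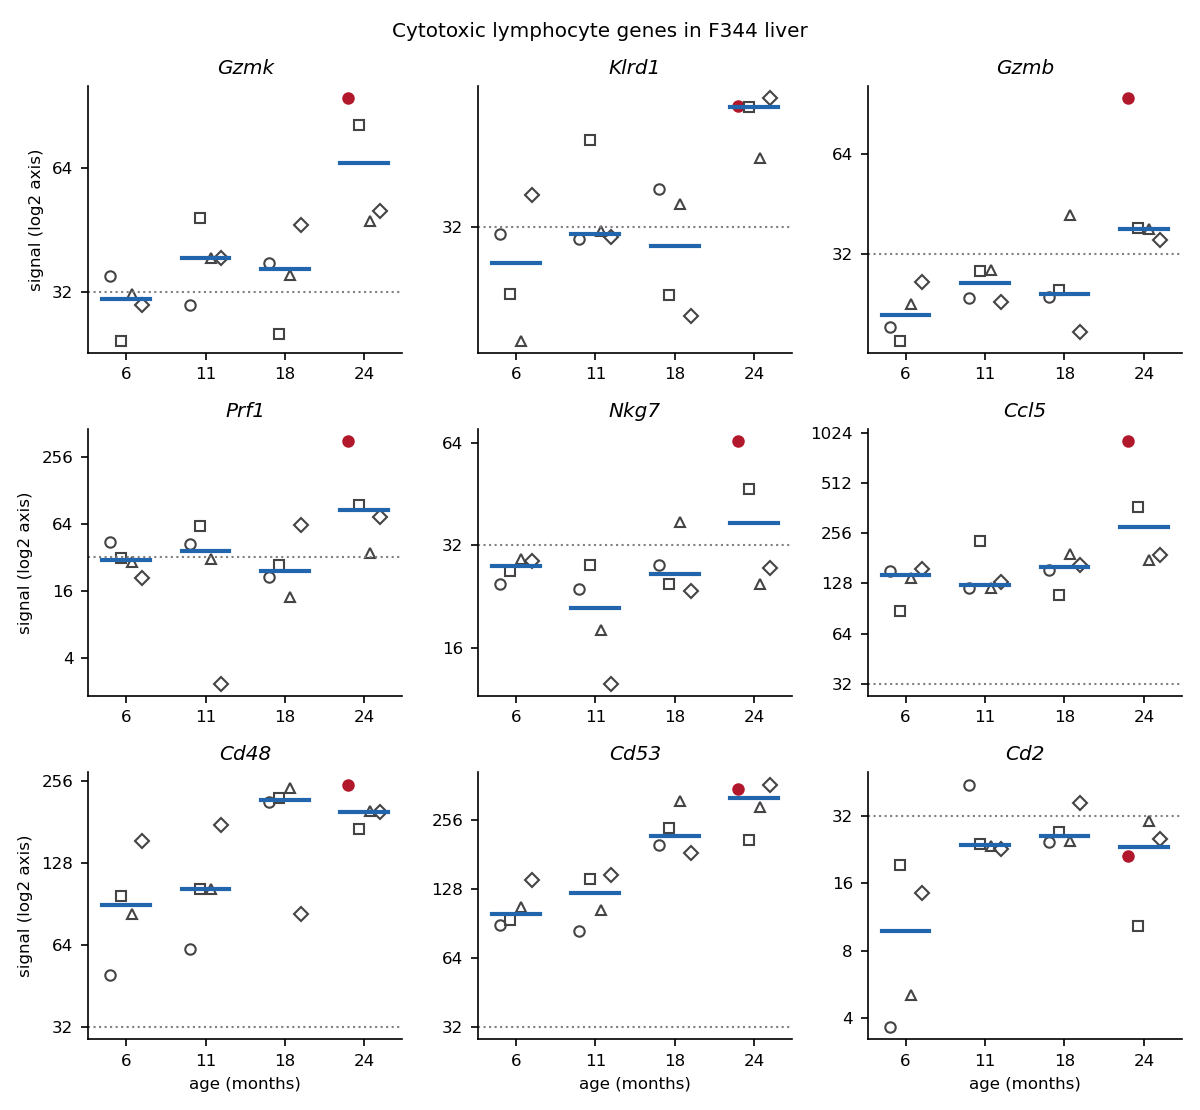
Signal of each member in the 16 F344 livers, on a log2 axis, by age in months. Each point is 1 liver (circle, square, triangle and diamond are replicates 1 to 4), the blue line is the group median, the dotted line is the floor of 32, and replicate 1 at 24 months is filled red. That liver is the highest of the 16 for Gzmk, Gzmb, Prf1, Nkg7, Ccl5 and Cd48, and the 24-month points of Gzmk, Klrd1 and Gzmb all lie above 32.

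Among the granule effectors, Gzmk encodes granzyme K, a serine protease with trypsin-like specificity. Its signals at 6 months were 34.9, 24.3, 31.6 and 29.7, and at 24 months 94.3, 81.1, 47.6 and 50.3. All 4 old livers were above all 4 young livers, and 3 of the young livers were under the floor. The difference was at least 2.00-fold (log2 fold change 1.00, SE 0.20, limma adjusted p = 0.00516). At 11 months Gzmk gave 29.6, 48.2, 38.6 and 38.7, and at 18 months 37.5, 25.2, 35.0 and 46.5. Both groups overlapped the 6-month livers, with adjusted p = 1 and 0.798 (limma). From 18 to 24 months Gzmk rose at least 1.75-fold (log2 fold change 0.81, SE 0.20, limma adjusted p = 0.0481). That step lost its call when replicate 1 or replicate 2 at 24 months was left out (limma adjusted p = 0.170 and 0.176), and when replicate 1, 2 or 3 at 18 months was (0.109 to 0.120).

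Gzmb encodes granzyme B, the protease that activates caspases in the target cell. It was at or below 32 on all 4 livers of 6 and of 11 months, and at 18 months only replicate 3 exceeded the floor, at 41.9. At 24 months its signals were 94.1, 38.1, 38.0 and 35.2. All old livers were thus above the floor and all young ones below it, but 3 of the 4 were close to it. The difference, at least 1.46-fold, missed the threshold (log2 fold change 0.55, SE 0.23, limma adjusted p = 0.174). Without replicate 1 at 24 months the log2 fold change was 0.21 (limma adjusted p = 0.362). With a floor of 8 in place of 32 it was 1.15 and passed (limma adjusted p = 0.0374). A second probe set annotated to Gzmb alone had a 24-month mean of 32.6 ± 14.4 (SD, n = 4) and was also highest in replicate 1, at 54.2.

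Prf1 encodes perforin, the pore-forming protein of the granule. At 6 months it gave 44.1, 31.2, 28.9 and 20.7, and at 24 months 351, 94.8, 35.2 and 73.3. A single liver, replicate 1, was 3.71 times the next highest of the 16, while replicate 3 lay among the young livers. The difference of at least 2.78-fold did not pass (log2 fold change 1.47, SE 0.48, limma adjusted p = 0.0748). It was 0.85 on the log2 scale without replicate 1 (limma adjusted p = 0.180) and 1.96 without replicate 3 (limma adjusted p = 0.0109). With the 3′ over 5′ ratio of GAPDH signals, a sign of RNA breakdown, as a covariate it was 1.62 and passed (limma adjusted p = 0.0468). At 11 months Prf1 ranged from 2.33 to 60.4 and at 18 months from 14.1 to 62.6, both across the floor.

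Nkg7, a membrane protein of cytotoxic granules, was under the floor on all 4 livers of 6 and of 11 months and above it at 18 months in replicate 3 alone, at 37.6. At 24 months its signals were 64.8, 46.8, 24.6 and 27.5. Replicates 1 and 2 were thus the highest of the 16 livers and the other two were not distinguishable from young ones. Nkg7 was not tested at the floor of 32. Tested with no filter on low values, its log2 fold change for 24 against 6 months was 0.39 (SE 0.17, limma adjusted p = 0.287).

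The receptor gene Klrd1 encodes CD94, which pairs with NKG2 proteins on natural killer and CD8 T cells to read MHC class I. Its signals at 6 months were 31.1, 24.3, 20.1 and 36.5, and at 24 months 52.4, 52.4, 42.5 and 54.2. All old livers were above all young ones, with a mean of 50.4 ± 5.35 (SD, n = 4). Klrd1 rose at least 1.52-fold from 6 to 24 months (log2 fold change 0.60, SE 0.13, limma adjusted p = 0.00839). At 11 and at 18 months 3 and 2 of the 4 livers were at the floor, and neither age differed from 6 months (limma adjusted p = 1 and 0.946). From 18 to 24 months it rose at least 1.47-fold (log2 fold change 0.56, SE 0.13, limma adjusted p = 0.0354). That call was lost when replicate 1, 2 or 4 at 24 months was left out (limma adjusted p = 0.110, 0.119 and 0.112), and when any liver of 18 months was (0.0560 to 0.0973).

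Ccl5, the chemokine RANTES, which draws T cells, natural killer cells and monocytes, was well above the floor in every liver. Its signals were 151, 87.7, 137 and 156 at 6 months and 909, 367, 176 and 189.7 at 24 months. All 4 old livers exceeded all young ones, and replicate 1 alone was 2.48 times the next highest liver. The 2.5-fold difference narrowly missed the threshold (log2 fold change 1.32, SE 0.40, limma adjusted p = 0.0560). Without replicate 1 it was 0.83 on the log2 scale (limma adjusted p = 0.148). Without replicate 3 or replicate 4 at 24 months it passed (log2 fold changes 1.62 and 1.58, limma adjusted p = 0.0243 and 0.0395). At 11 months Ccl5 ranged from 119.6 to 229.6 and at 18 months from 109 to 192, both overlapping the 6-month range.

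The surface molecules were Cd53, Cd48 and Cd2. Cd53, a tetraspanin of leukocyte membranes, had signals of 89.5, 93.5, 107 and 140.1 at 6 months and 84.3, 142, 104 and 148 at 11 months. They were 199.7, 237, 310.0 and 185 at 18 months and 351, 210.2, 292 and 367 at 24 months. Every liver of 18 or 24 months was above every liver of 6 or 11 months. Cd53 rose 2.16-fold from 6 to 18 months (log2 fold change 1.11, SE 0.22, limma adjusted p = 0.0218). From 6 to 24 months it rose 2.82-fold (log2 fold change 1.50, SE 0.22, limma adjusted p = 0.000593). The 18-month call was lost when any of replicates 1 to 3 at 6 months or replicates 2 and 3 at 18 months was left out, with limma adjusted p from 0.0621 to 0.0946.

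Cd48, a ligand of the natural killer cell receptor Cd244 and of Cd2, gave 49.7, 96.7, 83.5 and 154 at 6 months and 61.8, 103, 103 and 177 at 11 months. At 18 months it gave 215, 223, 241 and 83.5, and at 24 months 249, 172, 199 and 197. All 24-month livers exceeded all 6-month livers, and at 18 months 3 of 4 did. The 24-month difference was 2.28-fold and missed the threshold (log2 fold change 1.19, SE 0.37, limma adjusted p = 0.0618). It passed without replicate 4 at 6 months (1.46, limma adjusted p = 0.0290), and was 0.73 without the 5 arrays whose GAPDH 3′ over 5′ ratio was above 2.5 (limma adjusted p = 0.127). With that ratio as a covariate over all arrays it was 0.86 and passed (limma adjusted p = 0.0219). The 18-month difference was 1.99-fold (log2 fold change 0.99, SE 0.37, limma adjusted p = 0.261). It was 1.35 on the log2 scale without replicate 4 at 18 months (limma adjusted p = 0.0455). From 18 to 24 months Cd48 and Cd53 differed by 0.20 and 0.39 on the log2 scale (limma adjusted p = 0.914 and 0.534).

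Cd2, the adhesion receptor of T and natural killer cells that binds Cd48, was above the floor in 1 liver of 11 months, at 44.1, and in 1 of 18 months, at 36.4. All 4 old livers were at or below 32, so no direction was read for Cd2.

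From 6 to 11 months 0 of 7 members passed, as did 0% of all genes, and 0 members had an unadjusted p under 0.05, against 357 of 9206 genes. From 6 to 18 months 1 of 7 passed, against 0.912% of all genes called higher, and 1 of 7 did not overlap, against 4.24%. From 11 to 18 months 0 of 7 passed in limma, with 1 member (Cd53, log2 fold change 0.97, limma adjusted p = 0.0912) at an unadjusted p under 0.05, against 1025 of 9206 genes, and 0.293% of all genes passed. Cd53 passed without replicate 4 at 18 months (1.07, limma adjusted p = 0.0467), and it was the only one of the 7 without overlap, against 2.4% of genes. From 18 to 24 months 2 of 7 passed, against 0.88% of all genes called higher, and those 2 did not overlap, against 4.04%. Cd53 passed between 6 and 18 months and Gzmk and Klrd1 between 18 and 24 months. Whether the time courses of these genes differ from each other was not tested.

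**Figure D2:**
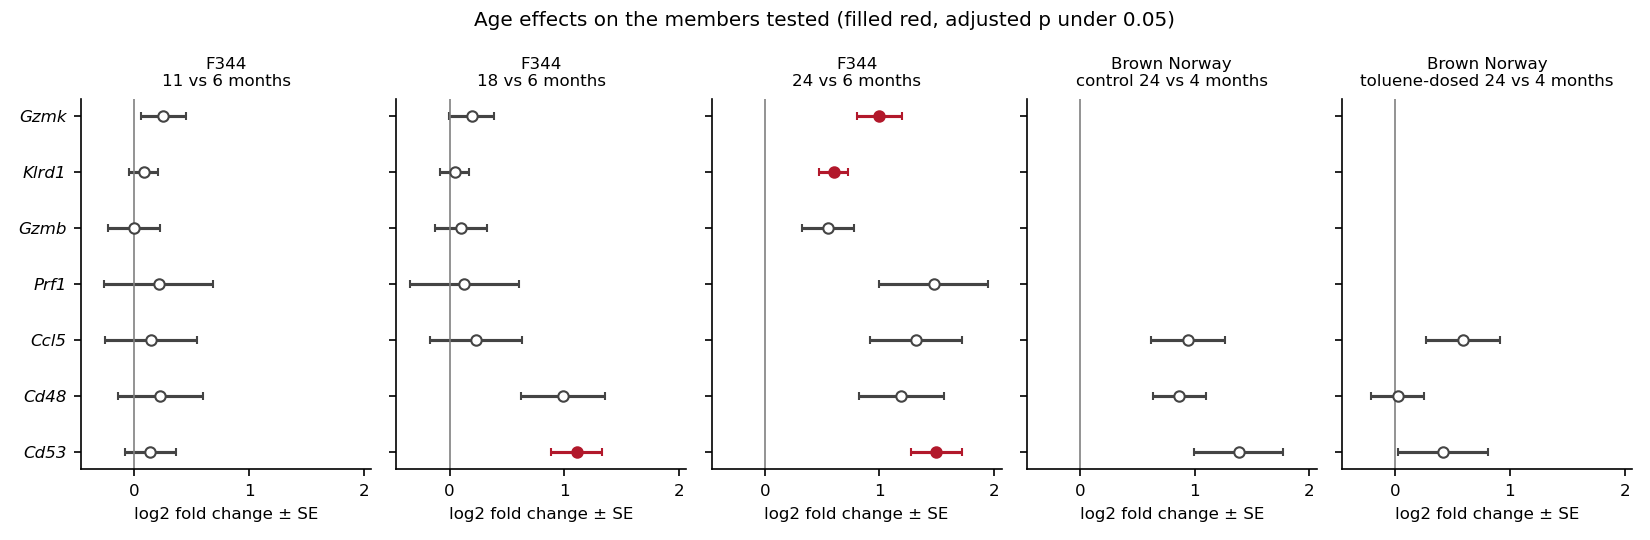
Log2 fold change with its SE for each member tested, in 5 comparisons of age. Filled red points passed at an adjusted p under 0.05 in limma: Cd53 at 18 months and Cd53, Gzmk and Klrd1 at 24 months in F344 rats, and none in Brown Norway rats, where 3 members were tested.

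The 24-month F344 livers were uneven. Replicate 1 was the highest of all 16 livers for 5 of the 7 members tested (Gzmk, Gzmb, Prf1, Ccl5 and Cd48), against 5.82% of all genes tested, and for Nkg7, which was not tested. Against the mean of the 6-month livers, on floored values, Prf1 in this liver was at least 10.1-fold and Ccl5 7.00-fold higher. In replicate 3 the same ratios were at least 1.02-fold and 1.35-fold, although its Cd53 was 2.76-fold higher. In replicate 4, Cd53 was 3.47-fold and Ptprc, the pan-leukocyte marker CD45, 3.32-fold higher, and Ccl5 was 1.46-fold higher. Among the granule and receptor genes of replicate 4, Prf1 was at least 2.11-fold, Klrd1 at least 1.64-fold, Gzmk at least 1.54-fold and Gzmb at least 1.10-fold higher, while Nkg7 was at the floor. Replicate 1 was highest for 0 of 8 MHC class II genes and 1 of 14 macrophage genes. Its summed signals of general leukocyte genes, 2804, and of T cell genes, 665, were the highest of the 16 livers. For blood cell genes (erythroid and platelet) its sum was 6167, against up to 6165 at 18 months. The part of any of these cells in its member signals was not tested.

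**Figure D3:**
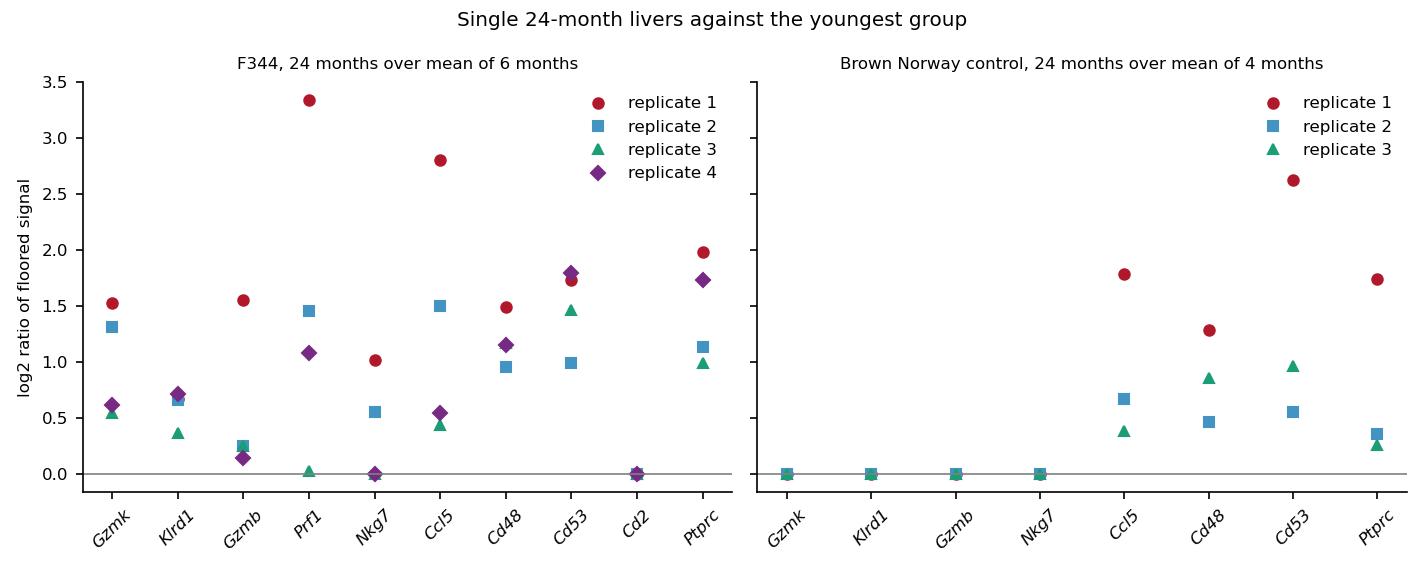
Log2 ratio of each 24-month liver to the mean of the youngest group, on values floored at 32, for F344 (left, 4 livers) and Brown Norway controls (right, 3 livers). Each symbol is 1 liver. The F344 replicate 1 stands apart for Prf1 and Ccl5 (10.1-fold and 7.00-fold), and the Brown Norway replicate 1 for Cd53 (6.19-fold). Gzmk, Klrd1, Gzmb and Nkg7 of that Brown Norway liver stay at the floor.

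Other genes of these cells gave fewer calls. Of 33 other natural killer and cytotoxic T cell genes listed, 16 had values in F344 and 7 were tested. At 24 against 6 months 0 of the 7 passed in limma, with a median log2 fold change of 0.29. Of the 7, 4 had an unadjusted p under 0.05, against 1881 of 9206 genes. Among them Gzma, which encodes granzyme A, had signals of 60.2, 63.1, 61.0 and 74.9 at 6 months and 142, 123, 58.1 and 90.6 at 24 months. The inhibitory receptor gene Klrg1 gave 48.8, 50.5, 45.1 and 37.0 at 6 months and 102, 82.4, 32.3 and 96.6 at 24 months. Both were high in 3 of the 4 old livers and not in replicate 3. Eomes, a T-box factor of cytotoxic cells, and Sh2d1a, the signalling adaptor SAP, exceeded the floor in replicate 1 at 24 months alone, at 89.2 and 67.1. Gzma, Klrg1, Eomes and Sh2d1a were picked after their values were seen. Of the 16 genes with values, 5 were at or below 32 in all 24-month livers. The summed signal of the 16 genes was 369 to 418 at 6 months, 319 to 486 at 11, 405 to 449 at 18 and 445 to 782 at 24 months, the highest in replicate 1.

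The next counts are also for 24 against 6 months in F344 rats, where 4.43% of all genes passed as higher and 7.4% in either direction. T cell genes numbered 8 tested, of which 2 rose: Lck, the kinase of the T cell receptor (log2 fold change 0.72, limma adjusted p = 0.0108), and Cd8a, the CD8 co-receptor (log2 fold change 0.79, limma adjusted p = 0.0313). Cd3d and Cd3e, which define T cells and were picked after their values were seen, were at or below 32 on all livers of 6 and 24 months. Such values are bounds and show neither presence nor absence of T cells. Of the 17 T cell genes with values, 12 were at or below 32 on all livers at 6 months and 7 at 24 months. Their summed signal was 320 to 407 at 6 months and 459 to 665 at 24 months. Which cells gave the Lck and Cd8a signals was not tested. In the pathway of granule storage and granzyme action 2 of 10 rose and 1 fell. The granzyme B inhibitor Serpinb9 (log2 fold change 1.21, limma adjusted p = 0.00543) and the granule proteoglycan Srgn (1.05, limma adjusted p = 0.0281) rose. Lyst, a regulator of lysosome-related granules, had a log2 fold change of -1.04 (limma adjusted p = 0.00631). Of 11 chemokine and chemokine receptor genes 1 rose, Cxcl16 (log2 fold change 0.96, limma adjusted p = 0.0105). Of 4 cytokine and cytokine receptor genes 1 rose, the shared gamma chain Il2rg (0.83, limma adjusted p = 0.0138). A count of 1 in lists this small was not read as a result about the list. Of 6 ligands and partners of the member receptors 0 passed in limma, and 2 had an unadjusted p under 0.05, against 1881 of 9206 genes.

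Of 14 general leukocyte genes tested 8 rose, against the 4.43% of all genes called higher, with a median log2 fold change of 0.73. They included Ptprc (1.46, limma adjusted p = 0.00365), the integrin chains Itgal (0.80, limma adjusted p = 0.000306) and Itgb2 (1.25, limma adjusted p = 0.00211). The summed signal of the 17 leukocyte genes was 1032 to 1298 at 6 months and 1740 to 2804 at 24 months, highest in replicate 1. Of 14 macrophage and Kupffer cell genes 5 rose and of 8 genes of MHC class II presentation 5 rose, against the same 4.43% of all genes. Of 9 hepatocyte markers 0 passed in limma and 0 had an unadjusted p under 0.05, against 1881 of 9206 genes. All these genes were listed with earlier results of these data known. Their part in the members' differences was not tested. In whole liver, more cells of a type and more RNA per cell cannot be told apart.

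RNA integrity also varied among F344 livers. The GAPDH probe set ratio, 3′ over 5′, which rises with RNA breakdown, was 1.66 to 4.35 at 6 months and 1.38 to 2.17 at 24 months. Without the 5 F344 arrays with a ratio above 2.5, Gzmk, Klrd1 and Cd53 passed at 24 against 6 months (limma adjusted p = 0.0489, 0.0335 and 0.0205). Without replicate 1 at 24 months they passed as well (limma adjusted p = 0.0196, 0.0300 and 0.00364). The 18-month call of Cd53 was lost without those 5 arrays (log2 fold change 1.10, limma adjusted p = 0.147), as were the calls from 18 to 24 months of Gzmk (0.91, limma adjusted p = 0.0932) and Klrd1 (0.53, limma adjusted p = 0.0572).

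In Brown Norway livers the granule and receptor genes with values, Gzmk, Gzmb, Nkg7 and Klrd1, were not detected above the floor. Over all 18 livers, Gzmk lay between 11.7 and 26.3, Klrd1 between 7.05 and 22.6, Gzmb between 0.764 and 13.6 and Nkg7 between 7.84 and 30.6. All of these signals were under 32, so no fold was computed and each is a bound. Signals were not scaled across the strains, so a lower signal in Brown Norway than in F344 rats is no measured strain difference. Of the 33 other natural killer and cytotoxic T cell genes 10 had values, and none was tested, since none exceeded 32 on 3 or more arrays. Some did so on 1 or 2 arrays.

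**Figure D4:**
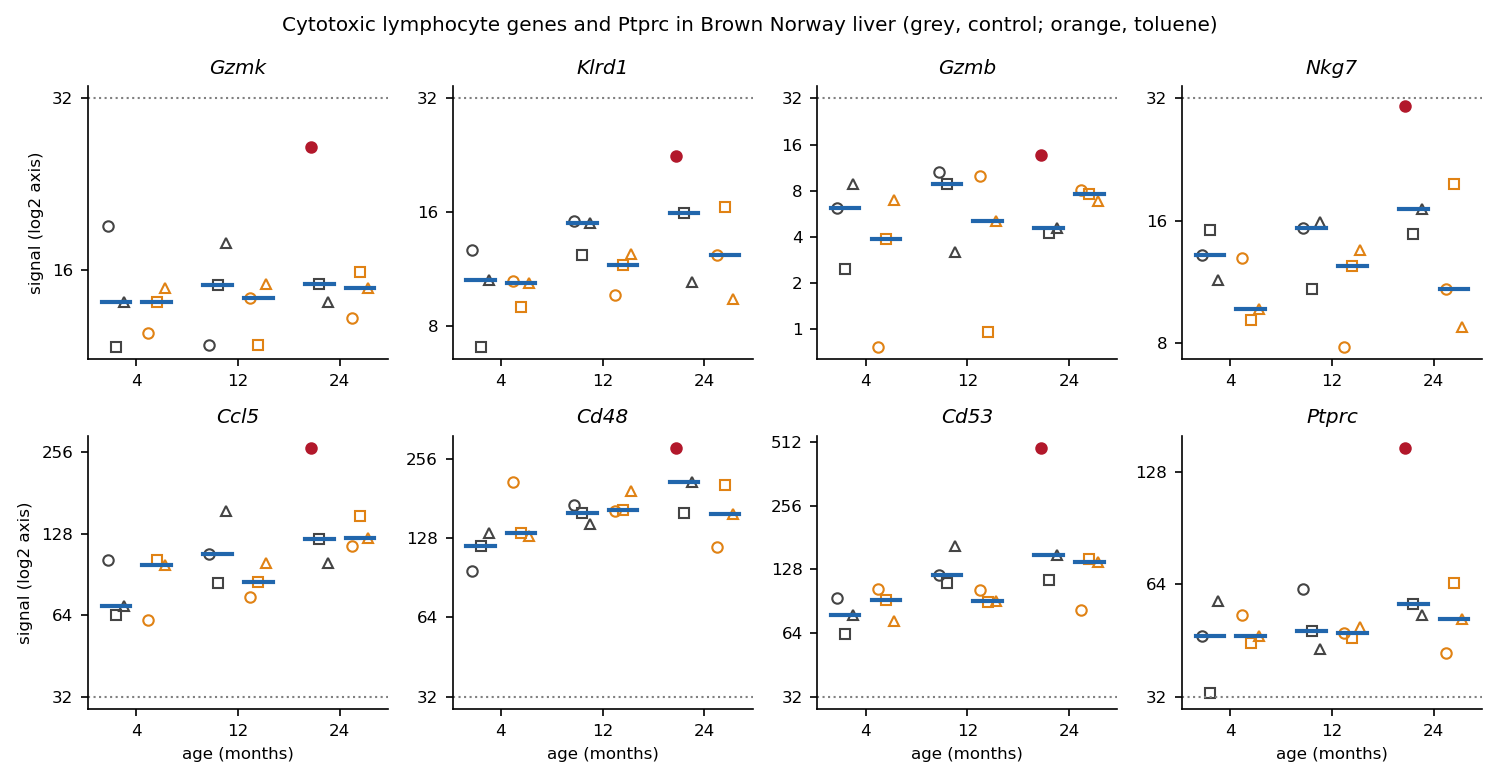
Signal of the 7 members with values, and of the leukocyte marker Ptprc, in the 18 Brown Norway livers, on a log2 axis, by age in months. Grey points are controls and orange points toluene-dosed rats (circle, square and triangle are replicates 1 to 3), blue lines are group medians, the dotted line is the floor of 32, and replicate 1 of the 24-month controls is filled red. That liver is the highest for Ccl5, Cd48 and Cd53, and its other members are under the floor.

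Ccl5, Cd48 and Cd53 were above the floor in every Brown Norway liver, and 0 of the 3 passed in limma in any of the comparisons of age or toluene. Cd53 gave 93.2, 63.0 and 78.2 in controls of 4 months, 119.8, 110.3 and 165 at 12 months and 477, 113 and 150.2 at 24 months. All controls of 12 and 24 months were above all of 4 months, but 2 of the 3 oldest lay within the 12-month range. The difference of 24 against 4 months was 2.61-fold (log2 fold change 1.38, SE 0.39, limma adjusted p = 0.138). It was 0.76 on the log2 scale without replicate 1 (limma adjusted p = 0.403) and 1.80 without replicate 2 (limma adjusted p = 0.0287).

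Cd48 gave 96.1, 119 and 134 in controls of 4 months, 171, 158 and 145 at 12 months and 280.1, 159 and 208 at 24 months. Here too all controls of 12 and 24 months exceeded those of 4 months. The 24-month difference was 1.82-fold (log2 fold change 0.87, SE 0.23, limma adjusted p = 0.123). It was 0.66 on the log2 scale without replicate 1 (limma adjusted p = 0.449) and 1.07 without replicate 2 (limma adjusted p = 0.0400). Ccl5 gave 102, 64.3 and 69.3 at 4 months, 108, 84.1 and 156 at 12 months and 265, 122 and 100.1 at 24 months. These groups overlapped, and the 24-month difference was 1.92-fold (log2 fold change 0.94, SE 0.32, limma adjusted p = 0.245), or 0.52 on the log2 scale without replicate 1 (limma adjusted p = 0.776).

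In the background of these comparisons 0.175% of genes passed as higher in controls of 24 against 4 months, and 6.72% had groups that did not overlap in that direction, as Cd48 and Cd53 did. All 3 members had an unadjusted p under 0.05 there, against 1000 of 8584 genes. From 4 to 12 months 0 of the 3 passed in limma, as did 0% of all genes. None of the 3 had an unadjusted p under 0.05, against 335 of 8584 genes, and Cd48 and Cd53 did not overlap, against 4.17% of genes. From 12 to 24 months 0 of the 3 passed in limma, 0 had an unadjusted p under 0.05, against 1249 genes, and 0.0233% of all genes passed.

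Replicate 1 of the 24-month Brown Norway controls was the highest of the 18 livers for Ccl5, Cd48 and Cd53, the 3 members tested, against 11.2% of all genes tested. It too was singled out by these values, so that share is a description and no test. Cd53 in this liver was 2.90 times the next highest and 6.19-fold the mean of the 4-month controls, and Ptprc, at 148, was 3.34-fold. Its Gzmk, Klrd1, Gzmb and Nkg7 were nevertheless under 32. Of the genes tested, the same liver was highest for 13 of 14 macrophage and Kupffer cell genes, 7 of 7 MHC class II genes, 9 of 9 general leukocyte genes and 2 of 4 T cell genes. Its summed MHC class II signal was 10892, against 947 to 1945 in the Brown Norway groups without this liver. The part of macrophages or other leukocytes in the Cd53, Cd48 and Ccl5 signal was not tested.

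In toluene-dosed rats Ccl5 gave 61.4, 103 and 98.3 at 4 months, 74.9, 84.8 and 99.6 at 12 months and 115, 148 and 124 at 24 months. The 24-month dosed livers did not overlap the 4-month ones, yet the difference did not pass (log2 fold change 0.59, SE 0.32, limma adjusted p = 1). Groups that did not overlap in this direction made up 8.19% of genes, and 0.268% of genes passed. Cd53 gave 103, 91.7 and 72.6 at 4 months and 82.1, 143 and 138 at 24 months, and Cd48 gave 209, 134 and 131 and then 119, 203 and 158. Both overlapped between the ages, with log2 fold changes of 0.42 and 0.02 (limma adjusted p = 1 for each). Over control and dosed rats together, 24 against 4 months gave log2 fold changes of 0.77 for Ccl5, 0.90 for Cd53 and 0.44 for Cd48 (limma adjusted p = 0.154, 0.163 and 0.292). In that mean 0.559% of all genes passed as higher, and all 3 members had an unadjusted p under 0.05, against 928 genes. Cd53 passed there without replicate 2 of the 24-month controls (1.11, limma adjusted p = 0.0427). With other single arrays left out its log2 fold change was as low as 0.59, and its limma adjusted p as high as 0.351.

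Toluene itself gave no call among the members, in the mean of the 3 ages (0.0699% of all genes passed) or at any age. At 4 months 0 of 3 passed in limma, at 12 months 0 and at 24 months 0, against 0.0233%, 0.0349% and 0.0582% of all genes, and none of the 3 had an unadjusted p under 0.05 at any age. The numbers of genes with an unadjusted p under 0.05 were 271, 396 and 953 of 8584. At 12 months Cd53 was 89.5 to 102 in dosed rats and 110.3 to 165 in controls (log2 difference -0.47, limma adjusted p = 0.932). At 24 months the log2 differences of dosed against control rats were -0.21 for Ccl5 (95% interval, from limma's standard error and degrees of freedom, -0.89 to 0.48), -0.43 for Cd48 (-0.93 to 0.07) and -0.77 for Cd53 (-1.60 to 0.05). The controls of that age include the liver that was highest for these 3 genes. The toluene effect at 24 minus that at 4 months was -0.85 for Cd48 and -0.97 for Cd53, and neither passed (limma adjusted p = 0.967 and 0.970), against 0.0116% of all genes. Of the 3 members 1, Cd48, had an unadjusted p under 0.05 there (95% interval -1.55 to -0.15), against 420 of 8584 genes.

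The effect of old age was set against the other strain only for Ccl5, Cd48 and Cd53. The log2 fold change of 24 against 6 months in F344 minus that of 24 against 4 months in Brown Norway controls was 0.38 for Ccl5 (95% interval -0.63 to 1.39), 0.32 for Cd48 (-0.53 to 1.18) and 0.11 for Cd53 (-0.77 to 0.99). None passed (adjusted p from the separate limma estimates 0.904, 0.903 and 0.975), against 1.27% of 7956 genes, and 0 of 3 had an unadjusted p under 0.05, against 769 genes. The intervals include differences above 0.9 in favour of F344 for all 3, and reach -0.63, -0.53 and -0.77 in favour of Brown Norway. Neither equal effects nor a larger effect in either strain was shown. The ages compared, housing and source of the animals differ with the strain and cannot be told apart from it.

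The genes most like the members were found by the correlation of floored log2 signals with the mean of the members tested, as a description over livers of several ages that share their arrays. In F344, over 16 livers and 7 members, they were Fyn (r = 0.94), Sash3 (0.93), Fxyd5 (0.92), Prkcb (0.92), Hopx (0.92) and Apol3-ps1 (0.91). Without the 2 livers farthest from the median of the member mean, replicates 1 and 2 at 24 months, r for Fyn was 0.78 and for Prkcb 0.94. Sash3, for example, averaged 59.9 ± 8.1 (SD, n = 4) at 6 months and 157 ± 83 at 24 months. In Brown Norway, over 18 livers and 3 members, the genes were RT1-DMb (r = 0.95), Gngt2 (0.95), Fcgr1a (0.95), Anxa3 (0.94), Slfn2 (0.94) and Fcer1g (0.93). None of the genes named is common to both strains.

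Within the set itself, each F344 member was compared with the mean of the other members over the 16 livers. Pearson's r was 0.89 for Ccl5, 0.87 for Gzmk, 0.83 for Gzmb, 0.81 for Klrd1, 0.76 for Prf1, 0.72 for Cd53 and 0.52 for Cd48. Without the pair of livers farthest from the median it was 0.63 for Ccl5, 0.66 for Gzmk, 0.58 for Gzmb, 0.76 for Klrd1, 0.25 for Prf1, 0.86 for Cd53 and 0.47 for Cd48. The fall was largest for Prf1, and r for Cd53 did not fall. Those 2 livers were picked by a mean that includes these members, so part of a fall is built in.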

How the data were processed

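Per the labels' protocols, liver RNA was isolated with TriReagent, cleaned on a column and hybridised to Affymetrix Rat 230 2.0 arrays. The file deposited by the authors holds intensities on a linear scale, 1 per probe set. MAS5 and RMA are named in the submitters' processing notes with no version, role or order, so the background correction behind low signals is unknown. The sorted signals of a strain's arrays varied by 1.47% in F344 and 1.62% in Brown Norway rats (median coefficient of variation), so arrays had been brought near a common distribution. Per-sample columns not used numbered 0.

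Of 24946 probe sets 17584 carried a single gene symbol, 393 several and 6916 none, and 53 were array controls. Each gene was taken at the probe set of highest mean signal in the strain. Signals under 32 were set to 32 and log2 was taken. Genes above 32 on at least 4 F344 or 3 Brown Norway arrays were tested, 9206 and 8584 in number, of which 7956 shared their probe set. Limma 3.58.1 in R 4.3.3 was fitted within each strain with a mean per group, over all of its arrays, with Benjamini-Hochberg adjustment over all genes. Strains were compared by their age effects, from the separate estimates and standard errors. The p-values rest on arrays of separate animals, and 3 or 4 arrays a group limit the precision. The fits were tested on simulated data with changes planted only in genes whose mean signal lay above the floor. Recovery of changes in genes near the floor was not checked.

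The members, the other gene lists and the motifs were chosen with earlier results of these data known. The genes named beside the members were taken from the up to 4 of smallest p that passed in each list, the 6 of highest correlation with the member mean in each strain, and Gzma, Klrg1, Eomes, Sh2d1a, Cd3d and Cd3e, chosen after their values were seen. Alternatives changed the probe set rule, scaling, floor, filter, variance model, array weights, GAPDH covariate, groups fitted and arrays left out.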

Additional observations from a re-analysis of the deposited data

Results flagged for a closer look

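In groups of 4 F344 livers, a single liver was set against the gap expected by Dixon's criterion for 9 members at 4 ages, 36 groups in all, and 6 stood apart. For normally distributed signals chance flags about 1 in 20 groups, a rate that need not hold here. The signals were used without the floor, so gaps among values under 32 counted. Klrd1 and Cd2 at 11 months each had 3 of 4 livers at or below 32. Gzmb at 24 months was 94.1 in replicate 1, against at most 38.1 in the other livers. Klrd1 at 24 months was low in replicate 3, at 42.5. At 11 months replicate 2 was high for both Klrd1, at 45.7, and Ccl5, at 229.6. Cd2 at 11 months was high in replicate 1, at 44.1, the array with the highest GAPDH 3′ to 5′ ratio of the series, 7.33. Cd48 at 18 months was low in replicate 4, at 83.5, whose ratio was 5.31. The part of RNA integrity in these values was not tested. Groups of 3 Brown Norway livers were not examined in this way.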

How the results depend on the processing

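None of the 6 called differences of a member reversed its direction under any alternative. Of 62 that were not called, 19 changed sign under at least 1 alternative, among them Cd48 at 24 against 18 months in F344 rats (0.20, lowest -0.16 on the log2 scale) and the strain differences of Ccl5 (0.38, lowest -0.12), Cd48 (0.32, lowest -0.14) and Cd53 (0.11, lowest -0.30). Gzmk and Klrd1 at 24 against 6 months in F344 rats passed under all 18 alternatives in which they were tested, and Cd53 under all 19. Other counts of members called moved, and the cause was not tested except where stated. For 24 against 6 months, 3 in the report, the count was 6 with array quality weights, 5 with the GAPDH ratio as a covariate and 3 to 5 with 1 array left out. For 18 against 6 months, 1 in the report, it was 0 with no filter on low values, 2 with array quality weights, 0 without the arrays of GAPDH ratio above 2.5 and 0 to 2 with 1 array left out. For 18 against 11 months, 0 in the report, it was 1 with array quality weights and 0 to 1 with 1 array left out. For 24 against 18 months, 2 in the report, it was 1 with probe sets averaged per gene or no filter, and 0 with a floor of 8, a floor 4 times as high (under which Gzmk and Klrd1 were not tested), only the compared groups in the fit, or without the arrays of GAPDH ratio above 2.5, and 0 to 2 with 1 array left out. In Brown Norway rats, 24 against 4 months gave 0 to 2 in controls and 0 to 1 in the mean of control and dosed rats with 1 array left out, and 2 in that mean with array quality weights. With no filter the strain difference gave 2 calls, Gzmk and Klrd1, whose Brown Norway values are all set to the floor, so that their spread is 0 by construction. No paired analysis was possible because the labels give the groups no shared replicate numbers. Signals near or under 32 limit the values of Gzmk, Klrd1, Gzmb, Prf1, Nkg7 and Cd2.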
